A study of Mus musculus with 6 samples.

Results

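The genes of the cytosolic ribosome were followed in wasting muscle of mice with the C26 colon carcinoma. Members were the genes of the array table whose symbol names a ribosomal protein of the large subunit (Rpl, Rplp) or small subunit (Rps, Rpsa, Fau), without pseudogene symbols ending in -ps and without the S6 kinases. The rule took 53 of 21212 probe sets, 29 of the large and 24 of the small subunit. It used no measured value, but the members were chosen with earlier results of these data known. RefSeq annotates 49 of the 53 as protein coding and 4 as pseudogenes (Rpl6l, Rps3a3, Rps4l and Rps12l1). Of 85 protein coding mouse genes that the rule describes in RefSeq, 36 were not analysed here, among them Rpl5, Rpl11, Rps4x and Fau. The C26 group held male CDF1 mice, 8 weeks old on arrival, that received C26 cells in PBS and matrigel under the skin of both flanks. The control group held mice of the same strain, sex and age that received PBS and matrigel alone, and carried no tumor. Gastrocnemius and plantaris muscles were taken 25 days after inoculation from 4 C26 and 3 control mice, and RNA of 2 to 3 muscles of a group was combined into each of 3 C26 pools (replicates 1, 3 and 4) and 3 control pools (replicates 1, 2 and 3), with 1 Affymetrix Gene 1.0 ST array per pool. No source used here ties mice to pools, so pools of a group may share a mouse and the p-values measure only the spread between pools.

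The ribosome translates every cytosolic mRNA. Its small subunit reads the codons of the mRNA, and its large subunit joins the amino acids and lets the new chain out through a tunnel. Cells build it from ribosomal RNA and many different proteins, and the mRNAs of these proteins share a pyrimidine tract at their 5′ end, the TOP element, through which mTOR and LARP1 control their translation. Skeletal muscle and heart also make RPL3L, a close relative of the core protein RPL3 that can take its place in the large subunit.

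The values are log2 expression values that the authors computed per gene with RMA, and differences are given as C26 minus control on that scale. The words rose and fell are kept for genes with an adjusted p of 0.05 or less in limma, where the Benjamini-Hochberg adjustment ran over the 21212 probe sets, and the count with the study's further minimum of 1.5-fold is given beside it. Arrays of the same group correlated at 0.994 to 0.996 and arrays of different groups at 0.976 to 0.981 (Pearson r over all probe sets). Array medians lay between 4.93 and 5.02. Odorant and vomeronasal receptors, the receptors of the nose, set a background of 3.83 (95th percentile of their 1258 probe sets), and 48 of the 53 members lay above it in the mean of at least 1 group. Each of 13 skeletal muscle fiber markers and each of 6 cardiac markers lay above it as well, and none of the cardiac markers rose or fell. Levels of different genes are not compared, because probe sets differ in brightness for reasons other than the amount of mRNA.

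The mRNAs of cytosolic ribosomal proteins were mostly higher in C26 muscle, by a small amount each. Of the 53 members 26 rose, against 14.3% of all probe sets, 1 fell, against 15.8% of all probe sets, and 26 did not pass. The median log2 difference was 0.31, a 1.24-fold higher level, whereas the median over all probe sets was −0.05. The difference was above 0 in 41 of the 53 members and in 41.8% of all probe sets. Among probe sets above the receptor background alone, 26 of 48 members rose and 1 fell, against 19.9% and 20.6% of those probe sets. With the minimum of 1.5-fold 0 members rose, against 5.94% of all probe sets, and 1 fell, against 4.95% of all probe sets, since the 26 rises lay between 0.28 and 0.57 on the log2 scale and the minimum corresponds to 0.58. The values of the C26 and control pools did not overlap for 33 members. In 29 of these every C26 pool lay above every control pool, against 19.3% of all probe sets, and in 4 below, against 24.6% of all probe sets. The number of rises depended on the test, with 12 by the methods' t-test, against 10.8% of all probe sets, and 5 by a test with unequal variances, against 5.83% of all probe sets, each with Benjamini-Hochberg adjustment. It was 19 to 26 when each array was left out in turn, against 11.2% to 14.3% of all probe sets. The rises of Rplp2, Rpl8, Rpl4, Rps3a3 and Rps9 held under both of those tests. Losses of calls given below for single genes are not complete.

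**Figure D1:**
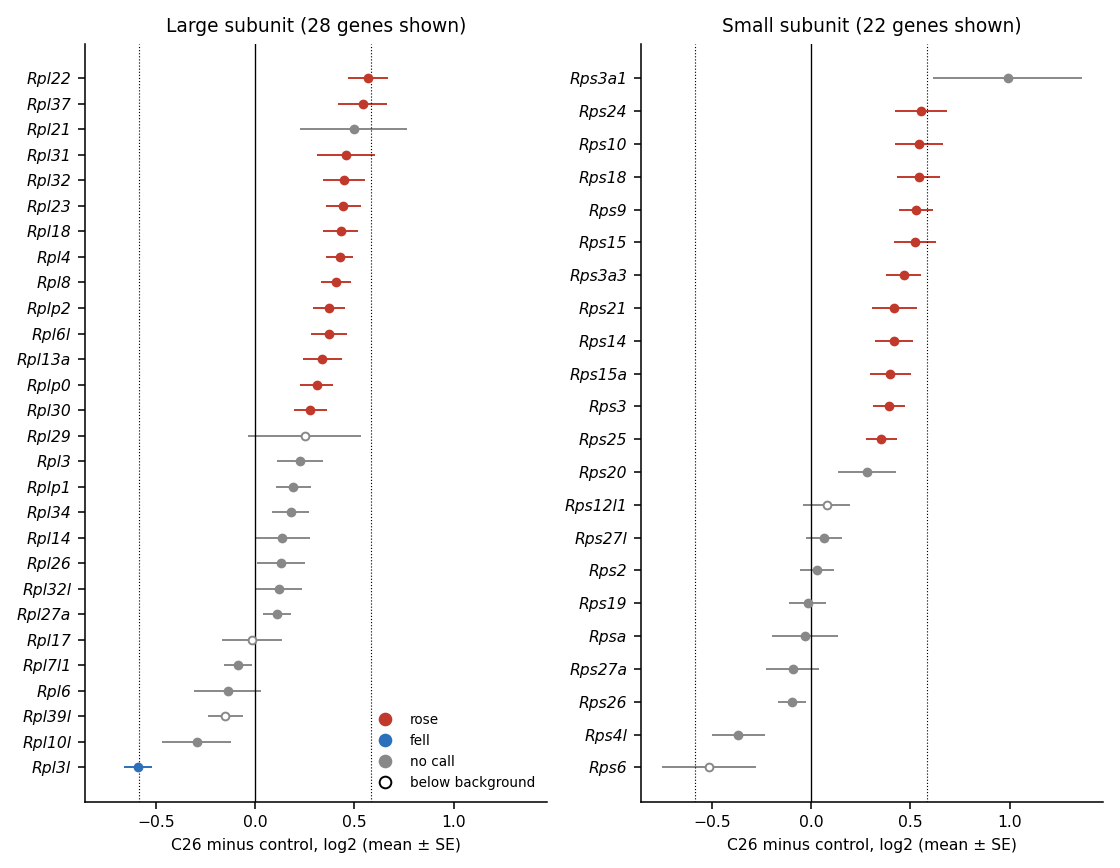
Difference between C26 and control muscle (horizontal axis, log2, mean ± SE from limma, 3 pools per group) for 28 large subunit genes (left) and 22 small subunit genes (right), ordered by difference, with red for genes that rose, blue for genes that fell, gray for genes without a call, open circles for genes below the receptor background and dotted lines at 1.5-fold. The 13 red genes of the left and the 11 of the right panel lie between 0.28 and 0.57, and Rpl3l at the lower left is the gene that fell.

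Markers of other cells moved in the same comparison. Of all probe sets 14.3% rose and 15.8% fell. Of 12 macrophage markers 7 rose and 0 fell, among them Cd163 and Mrc1. Adgre1, a defining macrophage receptor in mice, differed by 0.00 (SE 0.08). Csf1r (0.02), Mpeg1 (0.12), Fcgr1 (−0.11) and Cd68 (0.41) did not pass either. Of 10 lymphocyte markers, 2 of them above the receptor background, 0 rose and 1 fell. Of 8 endothelial markers 2 rose and 2 fell, and of 6 satellite cell markers 1 rose and 1 fell. Of 10 neutrophil markers 8 rose and 0 fell, and of 5 markers of red blood cell precursors 4 rose and 0 fell, led by Alas2, the heme synthesis gene of these cells, with 1.20. The summed level of the macrophage list (log2 of the summed linear values) was 10.55 to 10.63 in C26 pools and 9.86 to 10.04 in control pools. That of the neutrophil list was 7.90 to 8.16 in C26 pools and 6.59 to 6.72 in control pools, and that of the red cell list 8.74 to 9.27 in C26 pools and 7.91 to 8.30 in control pools. Of the 13 fiber markers 3 fell and 0 rose, with a summed level of 15.75 to 15.82 in C26 pools and 15.92 to 15.95 in control pools, and of 12 fibroblast and tendon markers 9 fell and 2 rose, with 12.26 to 12.44 in C26 pools and 13.15 to 13.33 in control pools. The part of these cells in the ribosomal protein values was not tested, and in whole muscle fewer cells of a type and less RNA per cell cannot be told apart.

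Both subunits shifted upward. Of 29 large subunit genes 13 rose and 1 fell, with a median of 0.25. Of 24 small subunit genes 13 rose and 0 fell, with a median of 0.37. Of all probe sets 14.3% rose and 15.8% fell. Without the 4 pseudogenes the medians were 0.24 over 28 large subunit genes and 0.39 over 21 small subunit genes. The median shift of the large subunit genes from their control means was 0.18, 0.21 and 0.35 in C26 replicates 1, 3 and 4, and 0.03, −0.01 and 0.01 in control replicates 1, 2 and 3. For the small subunit it was 0.27, 0.37 and 0.46 in C26 replicates 1, 3 and 4, and 0.01, 0.03 and −0.02 in control replicates 1, 2 and 3. All 3 C26 pools thus lay above all 3 control pools for both subunits, with the smallest shift in C26 replicate 1 and the largest in C26 replicate 4. No test was made of the difference between the subunits, whose quartiles overlapped (0.12 to 0.43 for the large and 0.02 to 0.48 for the small subunit).

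**Figure D2:**
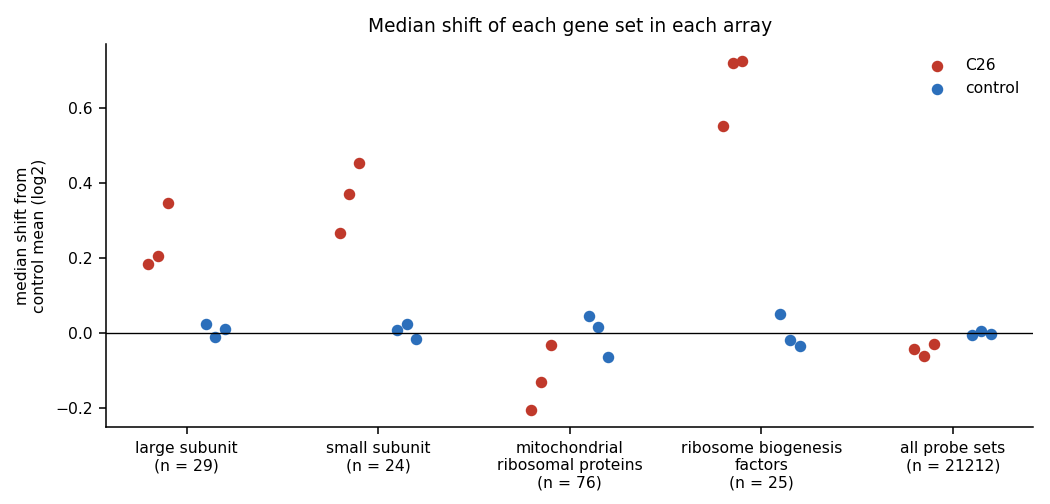
Median shift from the control mean (vertical axis, log2) of 5 gene sets in each of 3 C26 arrays (red) and 3 control arrays (blue), where each point is 1 array. Points of the C26 arrays lie at 0.18 to 0.35 for the large and 0.27 to 0.46 for the small ribosomal subunit, and at −0.20 to −0.03 for mitochondrial ribosomal proteins.

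Among large subunit genes the highest differences that passed the test were in Rpl22 and Rpl37. Rpl22, whose protein binds RNA on the solvent side of the subunit and is dispensable for translation itself, had values of 7.98, 8.20 and 8.22 in C26 pools and 7.51, 7.46 and 7.72 in control pools. The lowest C26 pool lay above the highest control pool, and the difference was 0.57 (SE 0.10, adjusted p = 0.0031 from limma), or 1.48-fold. Rpl37, a small zinc-binding protein of the subunit, had 4.66, 4.56 and 4.72 in C26 pools and 4.38, 4.05 and 3.88 in control pools, a difference of 0.54 (SE 0.13). These values lay close to the receptor background. The call of Rpl37 was lost by the methods' t-test, and the calls of Rpl37 and Rpl22 by the test with unequal variances.

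Several members belong to the exit tunnel of the new chain. Rpl4, which reaches into the tunnel wall, had 10.55, 10.57 and 10.59 in C26 pools and 10.15, 10.15 and 10.13 in control pools. Its pools differed within a group by far less than between groups, and the difference was 0.43 (SE 0.07, adjusted p = 0.00189 from limma). Rpl31, at the rim of the tunnel exit, rose by 0.46 (SE 0.15, adjusted p = 0.0447 from limma), but its lowest C26 pool (5.32) lay next to its highest control pool (5.31), and the call was lost without C26 replicate 1, 3 or 4 and without control replicate 2 or 3. Rpl31 also lost its call by the methods' t-test and by the test with unequal variances. Rpl26, another protein of the exit rim, had 8.19, 8.54 and 8.65 in C26 pools and 8.23, 8.35 and 8.41 in control pools. These groups overlapped, and Rpl26 did not pass (0.13, 95% interval −0.15 to 0.41).

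Rpl8, which contacts the peptidyl transferase center, rose by 0.41 (SE 0.08) and Rpl23, at the interface between the subunits, by 0.44 (SE 0.09). Rpl18 and Rpl32 rose by 0.43 and 0.45. Rpl30 rose by 0.28, the smallest rise that passed, and Rpl13a by 0.34, a protein known also to leave the ribosome and silence inflammatory mRNAs in myeloid cells. Calls of Rpl30 and Rpl13a were lost when C26 replicate 3 or 4, or any of the 3 control replicates, was left out, and that of Rpl30 also with quantile normalization. The methods' t-test and the test with unequal variances each lost the calls of Rpl30, Rpl13a and Rpl32. Those of Rpl18 and Rpl23 were lost by the test with unequal variances.

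The stalk recruits the GTPases of elongation to the large subunit, and is made of RPLP0 at its base with RPLP1 and RPLP2 bound to it. Rplp0 had 8.30, 8.35 and 8.53 in C26 pools and 8.05, 8.09 and 8.10 in control pools, a difference of 0.31 (SE 0.08, adjusted p = 0.0231 from limma). Rplp2 had 9.22, 9.12 and 9.10 in C26 pools and 8.69, 8.86 and 8.79 in control pools, a difference of 0.37 (SE 0.08). Rplp1 had 10.56, 10.58 and 10.80 in C26 pools and 10.42, 10.46 and 10.48 in control pools. The C26 pools lay above the control pools for all 3 stalk genes, but Rplp1 did not pass the test (0.19, SE 0.09, adjusted p = 0.14 from limma), and the call of Rplp0 was lost with quantile normalization and when C26 replicate 3 or 4 or any of the control replicates was left out. Rplp0 also lost its call by the methods' t-test and by the test with unequal variances.

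In the small subunit the highest differences that passed were in Rps24, Rps10, Rps18, Rps9 and Rps15. The calls of Rps24, Rps10, Rps18 and Rps15 were lost by the methods' t-test and by the test with unequal variances. Rps9 kept its call under both. Rps24, a gene mutated in some families with Diamond-Blackfan anemia in humans, rose by 0.55 (SE 0.13). Rps10 had 7.15, 7.09 and 7.40 in C26 pools and 6.78, 6.78 and 6.45 in control pools, a difference of 0.54 (SE 0.12, adjusted p = 0.00982 from limma). Rps18, whose protein reaches toward the transfer RNA in the peptidyl site, had 10.35, 10.54 and 10.42 in C26 pools and 9.91, 10.08 and 9.70 in control pools, a difference of 0.54 (SE 0.11). In both genes each C26 pool was above each control pool, and the control pools were the more scattered group in Rps18.

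Several members lie along the path of the mRNA. Rps3 and Rps9, which line the channel where the mRNA enters, rose by 0.39 (SE 0.08) and 0.53 (SE 0.09). Rps2, which stands in the same channel, had 9.23, 9.40 and 9.43 in C26 pools and 9.41, 9.32 and 9.24 in control pools, with overlapping groups and a difference of 0.03 (95% interval −0.17 to 0.23) that turned to −0.03 with quantile normalization. At the exit channel Rps14 rose by 0.42 (SE 0.10). Rps26, also of the exit channel, had 10.63, 10.61 and 10.62 in C26 pools and 10.68, 10.70 and 10.77 in control pools. Every C26 pool was lower for Rps26, but the difference was −0.10 (95% interval −0.26 to 0.06) and did not pass.

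Further rises of the small subunit were in Rps15 (0.52), Rps21 (0.42), Rps15a (0.40), Rps25 (0.35) and Rps3a3 (0.47). The call was lost for Rps15a without C26 replicate 3 or 4 or control replicate 3, and for Rps21 without control replicate 1 or 2. Rps15a and Rps21 also lost their calls by the methods' t-test and by the test with unequal variances, and Rps25 by the latter. Rps19, the first gene linked to Diamond-Blackfan anemia, differed by −0.02 (95% interval −0.23 to 0.20, 0.05 with arrays centred on their medians). Rpsa, also known as a laminin receptor, differed by −0.03 (95% interval −0.42 to 0.35, 0.03 under each of 3 other scalings) and Rps27a, which encodes a ubiquitin fused to a ribosomal protein, by −0.09 (95% interval −0.40 to 0.21). The highest difference of any member belonged to Rps3a1, with 3.87, 5.31 and 4.12 in C26 pools and 2.87, 3.91 and 3.53 in control pools. Its SE was the largest of the 53 members, the groups overlapped, and it did not pass (0.99, SE 0.37, adjusted p = 0.0808 from limma). Its control mean (3.44) lay below the receptor background and its C26 mean (4.43) above it.

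**Figure D3:**
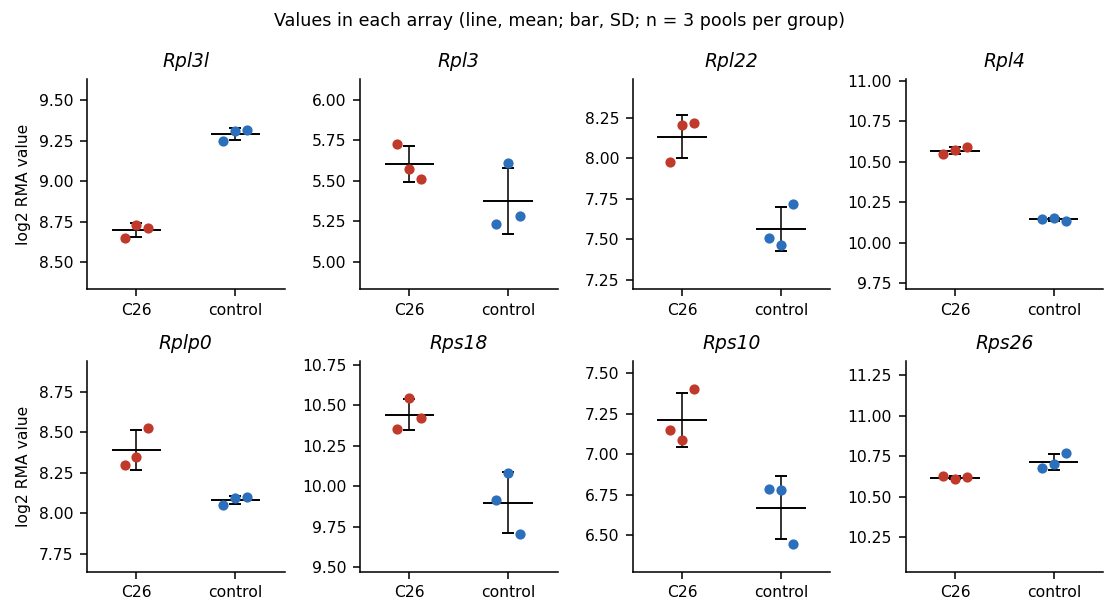
Values of 8 members in each array (vertical axes, log2 RMA value, all spanning the same range), with C26 pools in red at the left and control pools in blue at the right of each panel, a line at the mean and a bar of 1 SD (n = 3 pools per group). The C26 points lie below the control points for Rpl3l and Rps26 and above them for Rpl22, Rpl4, Rplp0, Rps18 and Rps10, and the groups overlap for Rpl3.

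Rpl3l, the muscle paralog, moved against the family. Its values were 8.65, 8.73 and 8.71 in C26 pools and 9.25, 9.31 and 9.31 in control pools, so that the groups lay far apart and each varied by 0.04 (SD, n = 3 each). Rpl3l fell by 0.59 (SE 0.07, 95% interval −0.76 to −0.43, adjusted p = 0.00041 from limma), or 1.51-fold, and it was the member that fell. The call at an adjusted p of at most 0.05 held under each alternative test, scaling and left-out array, with log2 differences of −0.67 to −0.53. The fall stood just past the minimum of 1.5-fold, and was below that minimum with the arrays centred on their medians (−0.53) and without C26 replicate 1 (−0.57), control replicate 2 (−0.58) or control replicate 3 (−0.58).

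Rpl3, the core gene, had 5.73, 5.57 and 5.51 in C26 pools and 5.23, 5.61 and 5.29 in control pools. Control replicate 2 lay among the C26 pools, and the difference of 0.23 (SE 0.11, 95% interval −0.04 to 0.49, adjusted p = 0.181 from limma) did not pass. The difference between the paralogs within an array, log2 Rpl3l minus log2 Rpl3, was 2.92, 3.16 and 3.20 in C26 pools and 4.01, 3.70 and 4.03 in control pools. It was lower by 0.82 in C26 muscle (C26 minus control −0.82, SE 0.14), and lower in 3 of 3 C26 pools than in any control pool. The exact permutation test gave p = 0.1 (two-sided), the smallest that 3 against 3 arrays can give. These within-array differences show an unequal change and not how much of each mRNA was present.

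The other paralogs that the array measured neither rose nor fell. Rpl7l1, a relative of RPL7 found in the nucleolus, had 7.12, 7.16 and 7.21 in C26 pools and 7.28, 7.23 and 7.24 in control pools, with each C26 pool lower and a difference of −0.09 (95% interval −0.25 to 0.07). Rps27l, a p53 target in human cells, differed by 0.06 (95% interval −0.15 to 0.28). Rpl10l and Rpl39l, which are known for their expression in testis, differed by −0.30 (95% interval −0.69 to 0.10) and −0.15 (95% interval −0.35 to 0.05), and Rpl39l lay below the receptor background. Rps4l, annotated as a pseudogene, had 4.63, 4.56 and 4.43 in C26 pools and 4.80, 4.70 and 5.21 in control pools. All C26 pools were lower, and it missed the threshold (−0.37, SE 0.13, adjusted p = 0.0707 from limma). Core partners of these 5 genes were not analysed here.

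Calls were more frequent among bright probe sets. Of the 26 members with a mean over the 6 arrays above the members' median of 6.94, 19 rose and 1 fell, with a median difference of 0.38 and a median SE of 0.09. Of the other 27 members 7 rose and 0 fell, with a median difference of 0.18 and a median SE of 0.13. Over all probe sets, bright and dim together, 14.3% rose and 15.8% fell. Further members without a call were Rpl34 (0.18) and Rpl27a (0.11), in which each C26 pool lay above each control pool, and Rpl21 (0.50, SE 0.27), Rps20 (0.28), Rpl14 (0.14) and Rpl32l (0.12), in which the groups overlapped. The control mean of Rpl21 (3.69) lay below the receptor background and its C26 mean (4.19) above it. The 5 members below the receptor background (Rps6, Rpl17, Rpl29, Rpl39l and Rps12l1) gave no call. Rps6, the substrate of the S6 kinases and a core protein of each ribosome, had 2.65, 1.89 and 2.55 in C26 pools and 3.02, 3.19 and 2.42 in control pools, all below the receptor background.

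**Figure D4:**
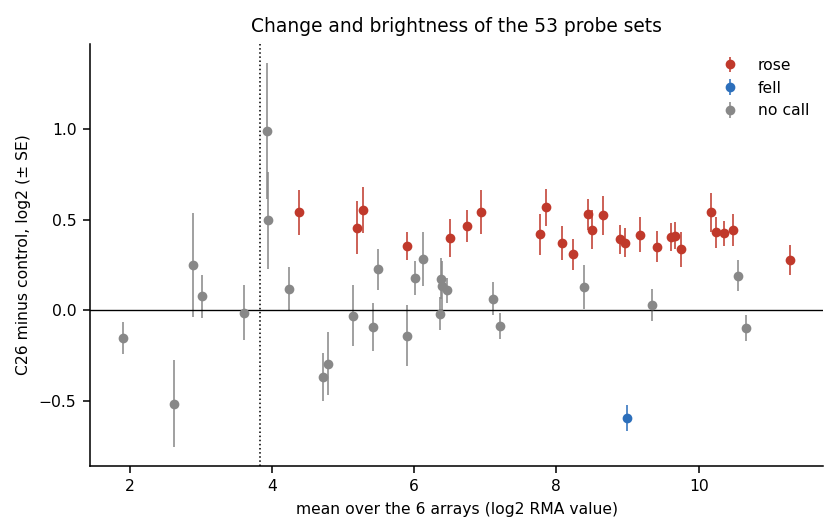
Difference between C26 and control muscle (vertical axis, log2 ± SE) against the mean value over the 6 arrays (horizontal axis, log2 RMA value) for the 53 members, with red for genes that rose, blue for the gene that fell, gray for genes without a call and a dotted line at the receptor background of 3.83. Bars are longer at the left, and 19 of the 26 rises lie right of 6.94.

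Near-identical copies limit what a single probe set says. Ribosomal protein genes have many processed pseudogenes, and array probes cannot always tell a gene from its copies. Rpl6l, annotated as like Rpl6, had 8.09, 8.33 and 8.36 in C26 pools and 7.92, 7.83 and 7.92 in control pools and rose by 0.37 (SE 0.09). Its call was lost without C26 replicate 3 or 4 or control replicate 2, by the methods' t-test and by the test with unequal variances. Rpl6 had 5.73, 6.07 and 5.67 in C26 pools and 6.33, 5.83 and 5.73 in control pools, a difference of −0.14 (SE 0.17) that did not pass. Likewise Rps3a3 rose while its parent Rps3a1 did not pass. Among 83 pseudogene probe sets that the rule leaves out, 20 rose and 2 fell, with a median difference of 0.20. Of all probe sets 14.3% rose and 15.8% fell. It is therefore uncertain which locus the values of Rpl6l, Rpl6, Rps3a3 and Rps3a1 measure. Whether probe sets of the other members also measure copies was not tested. The platform annotation named 45 of the 53 members, of which 21 rose and 1 fell, beside the same 14.3% and 15.8% of all probe sets. The other 8 were named through their Entrez gene number.

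The start sites of the members were set beside these values because the TOP element begins at the first base of the mRNA. RefSeq promoter windows (GRCm38.p6) were at hand for 35 of the 49 protein coding members. A C at the annotated start followed by at least 4 further pyrimidines was present in 8 of the 35 (22.9%), in 0 of 67 mitochondrial ribosomal protein genes, and in 2.69% of the 15548 genes of the table with a window. Within 10 bases on either side of the start such a run was present in 68.6% of the members, 44.8% of the mitochondrial ribosomal protein genes and 35.2% of all genes, and an annotated start need not be the base that muscle uses. Of the 8 members with a run at the start 5 rose and 0 fell, and of the other 27 members 13 rose and 1 fell. Of all probe sets 14.3% rose and 15.8% fell. The 30 bases around the start are shown for the 8 members with the run and, as the member that fell, for Rpl3l, 5′ to 3′ with the annotated start at base 16 and the pyrimidine run in capitals.
Rps10 (chr17:27635230-27635259, minus strand): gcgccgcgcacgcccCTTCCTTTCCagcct
Rps18 (chr17:33955651-33955680, minus strand): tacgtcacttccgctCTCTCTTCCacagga
Rps15a (chr7:118116133-118116162, minus strand): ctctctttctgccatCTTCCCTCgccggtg
Rps21 (chr2:180257364-180257393, plus strand): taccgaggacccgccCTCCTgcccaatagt
Rplp2 (chr7:141447636-141447665, plus strand): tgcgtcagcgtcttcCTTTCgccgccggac
Rpl14 (chr9:120571502-120571531, plus strand): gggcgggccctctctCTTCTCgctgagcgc
Rpl32l (chr10:20208424-20208453, plus strand): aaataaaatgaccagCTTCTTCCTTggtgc
Rps6 (chr4:86857353-86857382, minus strand): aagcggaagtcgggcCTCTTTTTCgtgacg
Rpl3l (chr17:24727811-24727840, plus strand): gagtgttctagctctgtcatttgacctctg
Rpl3l has no run at this site, the first of its annotated starts, but has one within 10 bases of it. The first 5 genes rose by 0.37 to 0.54, and Rpl14 (0.14) and Rpl32l (0.12) carry the run without a call. Rps6 has a run of 9 pyrimidines but its probe set lay below the background. The window of Rpl3 was not used here. The letters CCGGAAG, the core that ETS factors such as GABP bind, were found on either strand of the 300-base window in 51.4% of the members, 38.8% of the mitochondrial ribosomal protein genes and 13.6% of all genes, and the E-box CACGTG, which MYC binds, in 14.3%, 7.46% and 9.44% of the same sets. A match is a description of the sequence and not a bound site.

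The remaining translation machinery held many rises as well. Rack1, a scaffold protein of the small subunit outside the naming rule, rose by 0.48 (SE 0.09), and Rpl36al differed by 0.11 (SE 0.15). Of 34 initiation factor genes 21 rose and 1 fell, with a median of 0.43. Of all probe sets 14.3% rose and 15.8% fell. Above the receptor background, where all 34 lay, 19.9% of probe sets rose and 20.6% fell. The largest rises were in Eif3a (1.05), a subunit of the factor that prepares the small subunit, in the scaffold gene Eif4g3 (0.87), in the helicase gene Eif4a1 (0.83) and in Eif3g (0.76). The gene that fell was Eif4e, the cap-binding protein, named after its values were seen, with 5.15, 5.56 and 5.52 in C26 pools and 6.07, 6.09 and 6.31 in control pools (−0.75, SE 0.12, adjusted p = 0.00217 from limma). Of 12 elongation and termination genes 5 rose and 1 fell (Eef2k, the kinase that inhibits eEF2, −0.26), with a median of 0.18. Eef2, the translocation factor, and Eef1a1, which brings the transfer RNA, rose by 0.45 and 0.56.

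Eef1a2, the muscle form of this elongation factor and named here after its values were seen, had 12.07, 12.13 and 12.24 in C26 pools and 12.11, 12.13 and 12.16 in control pools, a difference of 0.01 (SE 0.08) with overlapping groups. Of 15 other genes whose mRNAs are known to carry a TOP element 10 rose and 0 fell, with a median of 0.45. The shares of all probe sets were 14.3% and 15.8%. Most of the 15 also stand among the genes above, and Npm1 stands among the ribosome biogenesis factors below. Of the 10 rises only that of Nap1l1 is not also reported with another list. Npm1 (1.27) and Nap1l1 (0.80), which encode histone chaperones, led this list.

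Factors that build ribosomes had a higher median than the proteins that make them up. Of 25 ribosome biogenesis factors 20 rose and 1 fell (Dkc1, −0.34), with a median of 0.69. Past 1.5-fold 15 of them rose, against 5.94% of all probe sets and 0 of the 53 ribosomal proteins. Without that minimum 14.3% of all probe sets rose and 15.8% fell, shares that apply to the lists below as well. Gnl3, which encodes nucleostemin, led with 1.60, followed by Ddx56 (1.57), Tsr1 (1.52) and Mphosph10 (1.40). The biogenesis list, like the members and the other lists, was chosen with earlier results of these data known, so its counts, median and leading genes are not independent of these data. Of 8 genes known, partly from yeast, to escort single ribosomal proteins, 4 rose and 0 fell, with a median of 0.28, led by Ltv1 (0.56), which acts with RPS3. Of 16 genes that control ribosomal protein synthesis 7 rose and 2 fell (Rps6ka1, −0.36, and Mycn, −0.28), with a median of 0.16. Among these Myc rose by 1.59 (SE 0.13) and Eif4ebp1, the translational repressor under mTOR, by 2.46 (SE 0.09). Mtor rose by 0.62 and its activator Rheb by 0.75, and Larp1, the repressor of TOP mRNAs, by 0.41. Tsc1 (0.59) and Ubtf (0.32) rose as well. Eef2k, Rps6ka1, Mycn, Larp1, Tsc1 and Ubtf were named after their values were seen. The lists differ in brightness and size, and the differences between them were not tested.

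Mitochondrial ribosomal proteins, which serve a separate ribosome for the mitochondrial genome, did not follow the cytosolic ones. Of 76 such genes 6 rose and 20 fell, beside 26 that rose and 1 that fell among the 53 cytosolic genes. Of all probe sets 14.3% rose and 15.8% fell. Above the receptor background, where all 76 lay, 19.9% of probe sets rose and 20.6% fell. The median of the 76 genes was −0.09 and that of all probe sets −0.05. Mrpl19 (−0.81), Mrpl18 (−0.74) and Mrpl45 (−0.68) had the largest falls and Mrpl41 (0.68) the largest rise. The median shift of these 76 genes was −0.20, −0.13 and −0.03 in C26 replicates 1, 3 and 4, and 0.05, 0.02 and −0.06 in control replicates 1, 2 and 3. The C26 and control arrays thus overlapped in this median, unlike those of the cytosolic subunits.

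**Figure D5:**
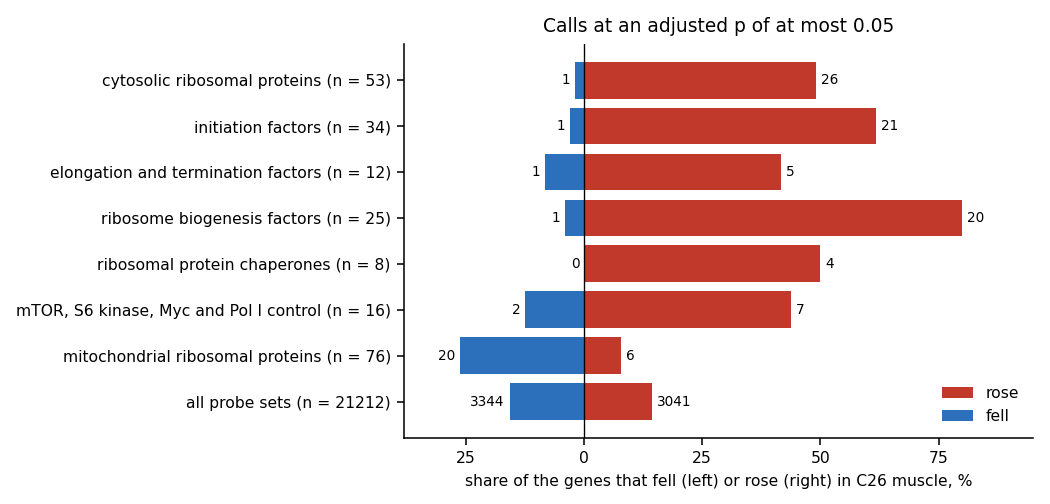
Share of the genes of each set that rose (right, red) or fell (left, blue) in C26 muscle at an adjusted p of at most 0.05 (horizontal axis, %), with the number of genes beside each bar and set sizes at the left. Cytosolic ribosomal proteins have 26 rises and 1 fall of 53, ribosome biogenesis factors 20 and 1 of 25, and mitochondrial ribosomal proteins 6 and 20 of 76.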

How the data were processed

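Total RNA of gastrocnemius and plantaris muscle (RNA integrity number at least 8.0) was measured on 6 arrays, as described above. The authors computed the deposited log2 values with RMA in GenePattern, which corrects background, normalizes by quantiles and summarizes the probes of each gene with a Brainarray custom CDF, and the log2 values were used without further scaling. No source used here names the genome build of the probes. Row numbers are Entrez gene numbers, which equal the platform annotation's for 18743 of 18792 listed rows, and 20656 of 21212 rows matched a RefSeq symbol. The comparison of C26 with control pools used lmFit and eBayes of limma 3.58.1 (R 4.3.3, two-sided, prior degrees of freedom 4.52), and the paralog difference was tested by an exact permutation test in SciPy 1.17.1. The number of arrays limits the precision. Named genes were the paralogs and partners, the stalk, Rps27a, the 8 largest rises, all falls, Rack1, Rpl36al and at most 4 genes of each list, and others are named after their values were seen, to account for the members. The members and lists were chosen with earlier results of these data known. Alternatives were other tests, limma settings, scalings, a filter on dim probe sets, a replicate block and leaving out each array. The script was tested on simulated data. A few members enter the counts and medians but are not reported here singly.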

Additional observations from a re-analysis of the deposited data

How the results depend on the processing

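Each of the 27 called members kept its direction under each alternative run. Across other scalings, filters, member rules and the replicate block the median of all members was 0.27 to 0.37, that of the large subunit 0.24 to 0.31 and that of the small subunit 0.32 to 0.44. Leaving out each array in turn gave 19 to 26 members that rose and 1 to 2 that fell, and 0 to 3 that rose and 0 to 1 that fell with the 1.5-fold minimum, with medians of 0.24 to 0.34 for all members, 0.18 to 0.31 for the large and 0.33 to 0.41 for the small subunit, and −0.93 to −0.73 for Rpl3l minus Rpl3. Over the same fits 20 to 25 initiation factors rose and 1 to 2 fell, 5 to 6 elongation genes rose and 0 to 2 fell, 10 to 11 genes of other TOP mRNAs rose and 0 to 2 fell, 18 to 20 biogenesis factors rose and 0 to 1 fell, 0 to 5 chaperones rose, 6 to 8 control genes rose and 0 to 2 fell, and 4 to 7 mitochondrial ribosomal protein genes rose and 14 to 18 fell.

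By the methods' t-test 12 members, 1 chaperone and 3 mitochondrial ribosomal protein genes rose, and 0 elongation, 0 biogenesis and 0 control genes fell. By a test with unequal variances 5 members, 9 initiation factors, 6 genes of other TOP mRNAs, 11 biogenesis factors, 1 chaperone, 3 control genes and 1 mitochondrial ribosomal protein gene rose, and 0 initiation, 0 elongation, 0 biogenesis and 0 control genes and 6 mitochondrial ribosomal protein genes fell. Both tests estimate the spread of each gene from its own arrays alone. The rises of members that held under both were those of Rplp2, Rpl8, Rpl4, Rps3a3 and Rps9. With the arrays centred on their medians 7 members rose and 0 fell past 1.5-fold, and 0 elongation, 0 biogenesis and 1 control gene fell. In that scaling 59.1% of all calls over the table were rises, against 47.6% with the deposited values, and 17.3% of all probe sets rose. With quantile normalization or cyclic loess 2 members rose past 1.5-fold, 2 initiation factors fell and 1 control gene fell. With the intensity trend 2 initiation factors fell. With the fit and its adjustment run anew on the probe sets above the receptor background alone, unlike the counts over those probe sets given with the main adjustment, 2 members (Rpl3l and Rps4l), 2 initiation factors, 2 elongation genes and 1 gene of the other TOP mRNAs fell. The cause of these differences was not tested.

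Replicate numbers 1 and 3 occur in both groups but belong to pools from different mice, and deviations of same-numbered arrays correlated at −0.06 in both cases. With the replicate block 7 members rose, against 8.32% of all probe sets, and 2 fell, against 8.19% of all probe sets, 2 rose past 1.5-fold, 0 chaperones and 2 mitochondrial ribosomal protein genes rose, and 0 elongation, 0 biogenesis and 0 control genes and 12 mitochondrial ribosomal protein genes fell. The block leaves fewer residual degrees of freedom. Members without a call changed the sign of their difference in up to 4 cases under a single alternative.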
